A study of Rattus norvegicus with 24 samples.

Results

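The oligodendrocyte precursor and differentiation genes are 10 genes that mark a cell's passage from a dividing oligodendrocyte precursor to a newly formed oligodendrocyte: Pdgfra, Cspg4, Olig1, Olig2, Sox10, Gpr17, Bcas1, Enpp6, Nkx2-2 and Sox6. They were found by gene name, without regard to their values, among 26641 loci with a gene name of 42334 loci in all. All 10 were listed and all passed the filter on low values, a mean normalized count of at least 10. Olig2 alone had several loci, and the 1 with the higher mean stands for it below.

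Messenger RNA was sequenced from the brains of 12 adult male Sprague-Dawley rats, 6 with traumatic brain injury (TBI) by lateral fluid percussion and 6 sham-operated controls. Tissue was taken 3 months after surgery from the cortex around the lesion and from the thalamus of the same side, so each rat gave 2 libraries. The 4 groups of 6 libraries are sham cortex, TBI cortex, sham thalamus and TBI thalamus. No transgene or test compound was involved, sham rats had the anaesthesia and surgery without the impact, and any rat with signs of pain was given the analgesic carprofen. Magnetic resonance imaging under isoflurane is described for TBI rats alone, which were chosen for a rim of raised signal around the lesion, so they stand for rats with lasting perilesional inflammation and not for all injured rats.

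Oligodendrocyte precursors are glial cells that persist throughout the adult brain, divide slowly, and mature into the oligodendrocytes that wrap axons in myelin. Platelet-derived growth factor acting on its receptor PDGFRA keeps precursors dividing, while the transcription factors OLIG2 and SOX10 are held from the precursor to the mature cell. On leaving the cycle a precursor passes through a short committed stage that carries GPR17 and then BCAS1 and ENPP6, and such stage genes are commonly read as signs of ongoing oligodendrocyte formation. White-matter-rich tissue holds more oligodendrocytes than grey matter.

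Promoter sequence is shown for 4 of the genes: the pair of surface markers whose RNA was higher in the injured cortex, Pdgfra and Cspg4, the lineage factor Olig2, and Enpp6, the gene with the widest difference between thalamus and cortex. The letters are 250 bases before to 50 bases after the gene's start in RefSeq on the rat assembly GRCr8, which is a later build than the one behind the counts. Of the 10 genes, 7 had an entry in this table. Capitals mark matches, on either strand, to the E-box CANNTG, the core letters bound by basic helix-loop-helix factors such as OLIG2, and to ACAAT or ACAAAG, letters bound by SOX factors.
Pdgfra: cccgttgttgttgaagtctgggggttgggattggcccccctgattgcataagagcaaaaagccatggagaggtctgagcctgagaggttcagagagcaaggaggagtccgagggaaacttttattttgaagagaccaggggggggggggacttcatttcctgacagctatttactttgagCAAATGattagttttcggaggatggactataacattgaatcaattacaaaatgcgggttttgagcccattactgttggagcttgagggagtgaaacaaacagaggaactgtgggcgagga
Cspg4: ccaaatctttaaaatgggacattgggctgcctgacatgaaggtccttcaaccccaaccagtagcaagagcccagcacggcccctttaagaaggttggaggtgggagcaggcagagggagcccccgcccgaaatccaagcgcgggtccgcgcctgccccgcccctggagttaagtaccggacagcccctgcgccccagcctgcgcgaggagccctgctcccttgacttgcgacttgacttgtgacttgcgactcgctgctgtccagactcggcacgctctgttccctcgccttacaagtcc
Olig2: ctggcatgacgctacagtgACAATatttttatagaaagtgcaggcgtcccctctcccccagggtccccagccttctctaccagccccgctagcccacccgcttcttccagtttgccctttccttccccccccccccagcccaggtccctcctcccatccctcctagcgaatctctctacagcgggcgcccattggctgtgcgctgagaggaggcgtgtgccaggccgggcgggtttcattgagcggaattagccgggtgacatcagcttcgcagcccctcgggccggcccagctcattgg
Enpp6: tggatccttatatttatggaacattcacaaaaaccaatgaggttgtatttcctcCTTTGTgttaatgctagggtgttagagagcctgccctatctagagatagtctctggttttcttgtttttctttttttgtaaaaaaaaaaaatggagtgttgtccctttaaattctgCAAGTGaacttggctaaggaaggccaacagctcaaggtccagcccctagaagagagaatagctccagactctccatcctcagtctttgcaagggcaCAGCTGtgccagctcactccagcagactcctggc
Pdgfra lies at chr14:33408467-33408766 on the minus strand and holds 1 E-box. Cspg4 lies at chr8:66160692-66160991 on the plus strand and holds 0 matches. Olig2 lies at chr11:43961335-43961634 on the plus strand and holds 1 match to ACAAT. Enpp6 lies at chr16:52026679-52026978 on the minus strand and holds 2 E-boxes and 1 match to ACAAAG. Over the 7 members with an entry, 3 held an E-box, 2 held ACAAT and 2 held ACAAAG, against 72.1%, 33.7% and 18.8% of all 33469 promoters in the table. A match is a run of letters and not a measured binding site, and its absence from this window says nothing about the factor.

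The 24 libraries held between 30568900 and 54608900 fragments. Values are normalized counts, the fragments at a locus divided by a size factor for the library, and they are not divided by gene length, so levels are compared for 1 gene across libraries and not between genes. A count of 3 fragments corresponds to at most 3.76 normalized counts in any library, and the lowest value of any member was 59.2. Replicates are separate rats. Tcf7l2, a transcription factor of both thalamic neurons and differentiating oligodendrocytes, was 5.94 ± 0.09 higher on the log2 scale in sham thalamus than in sham cortex, as the tissue labels imply. In TBI rats 9 of 11 microglia and macrophage markers were higher in each region and none was lower, 4 of 7 astrocyte markers were higher in each region with 2 lower in cortex, and 8 of 9 neuron markers were lower in cortex and 9 of 9 in thalamus (limma, adjusted p under 0.05). Gfap, the astrocyte filament gene, rose by 2.26 in both regions and Aif1, a microglial gene, by 0.66 in cortex and 1.12 in thalamus, while Rbfox3, a neuronal nuclear protein gene, fell by 0.22 and by 0.48 on the log2 scale. Some libraries stood apart: choroid plexus markers summed to 262216 normalized counts in TBI thalamus of rat 45, to 107876 and 68150 in sham thalamus of rats 50 and 34, and to 32899, 23900 and 11452 in cortex of rats 45, 26 and 34, against 588 to 2997 in all other libraries.

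**Figure D1:**
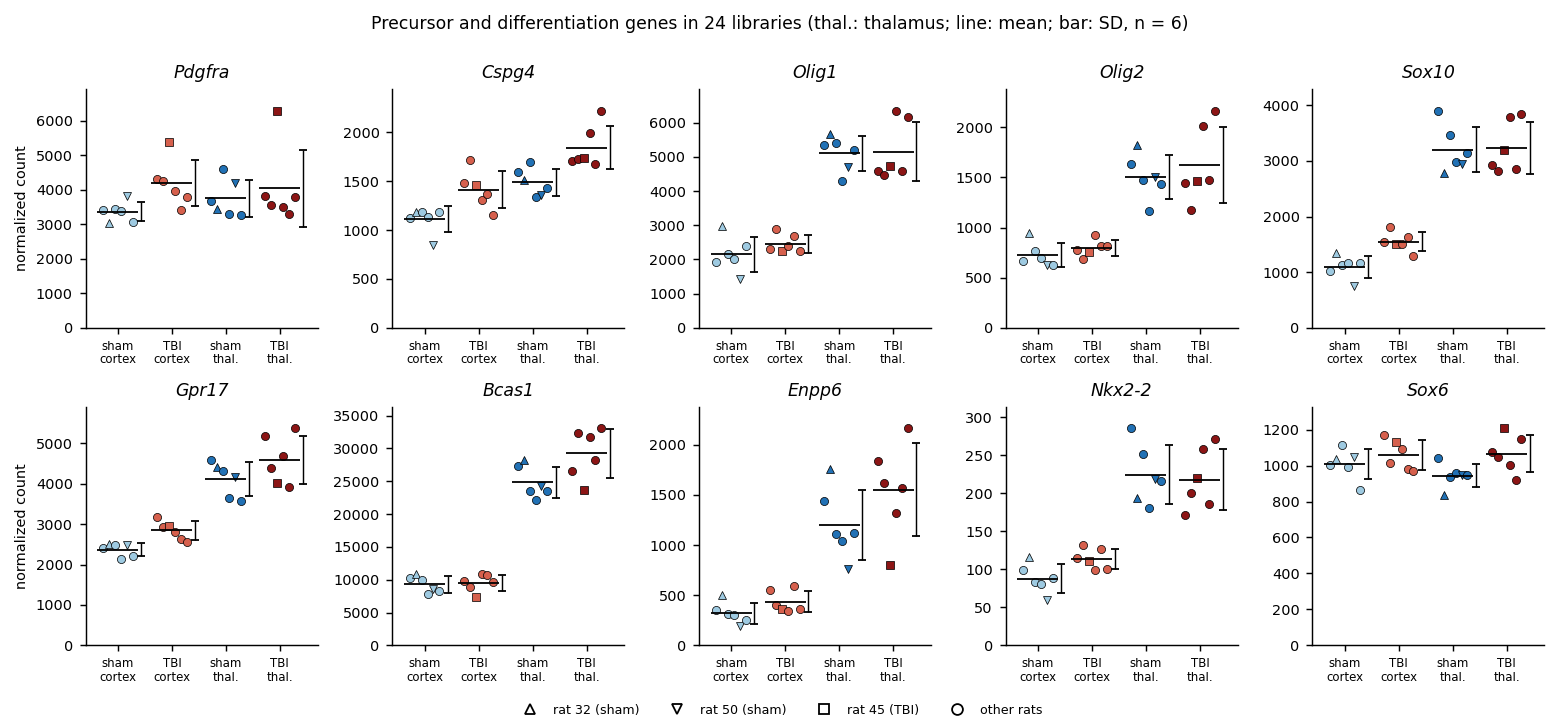
Normalized counts of the 10 genes (vertical axes, from 0) in the 24 libraries, 6 per group; each point is a library, the line is the mean and the bar the SD, and triangles and squares mark sham rats 32 and 50 and TBI rat 45. All thalamus points lie above all cortex points of the same treatment for 7 genes in both treatments, whereas TBI and sham points of a region overlap except for Gpr17 in cortex.

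In the perilesional cortex 4 of the 10 genes were higher in TBI rats than in sham rats and 0 were lower: Sox10 at 1.42-fold, Cspg4 at 1.27-fold, Pdgfra at 1.24-fold and Gpr17 at 1.20-fold. Over all 15493 loci tested, 14.3% were called higher and 14.9% lower. Each of the 10 estimates was above 0, with a median log2 fold change of 0.28 against -0.01 over all loci. The edgeR quasi-likelihood test on recovered fragments called the same 4 genes. In bulk tissue, a change in the number of cells of a type and a change in RNA per cell cannot be told apart.

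The surface markers of dividing precursors were both higher in injured cortex. Pdgfra, the receptor through which platelet-derived growth factor keeps precursors in the cycle, ranged from 3054 to 3808 normalized counts with a median of 3400 in sham cortex and from 3421 to 5373 with a median of 4120 in TBI cortex. Of the 6 TBI libraries, 4 lay above every sham library, and the remaining 2 lay inside the sham range. The log2 fold change was 0.30 ± 0.09 (SE, n = 6 and 6; limma, adjusted p = 0.019). The highest TBI value, 5373, was that of rat 45, without which the log2 fold change was 0.23 with an adjusted p of 0.030. A single fit over all 24 libraries gave an adjusted p of 0.068, and leaving out the 3 cortex libraries with the most choroid plexus RNA gave 0.075.

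Cspg4, which encodes the NG2 proteoglycan of precursors and pericytes, ranged from 851 to 1189 with a median of 1157 in sham cortex and from 1151 to 1718 with a median of 1411 in TBI cortex. The groups overlapped in 1 TBI library, and the other 5 lay above every sham library. TBI libraries were higher by 0.34 ± 0.10 on the log2 scale (limma, adjusted p = 0.016). Sham rat 50, at 851, stood apart from the other sham libraries, which lay between 1122 and 1189.

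Fibroblasts also carry Pdgfra and pericytes also carry Cspg4, and markers of both cell types moved in the same direction. Of 7 fibroblast markers, 6 were higher in TBI cortex and 0 lower, among them the collagen gene Col1a1 at a log2 fold change of 0.87 ± 0.21 and the matrix proteoglycan gene Dcn at 0.86 ± 0.16. Their summed level ran from 7858 to 10352 normalized counts in sham cortex and from 11374 to 26712 in TBI cortex, with no overlap. Of 6 pericyte and smooth muscle markers found, 2 were higher and 0 lower, and their sums overlapped, at 12976 to 16222 in sham and 14055 to 17794 in TBI cortex. Pdgfrb, the pericyte receptor gene, rose by 0.46 ± 0.07 on the log2 scale. No marker of either list was at 0 on average. The part of these cells in the changes of Pdgfra and Cspg4 was not tested.

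**Figure D2:**
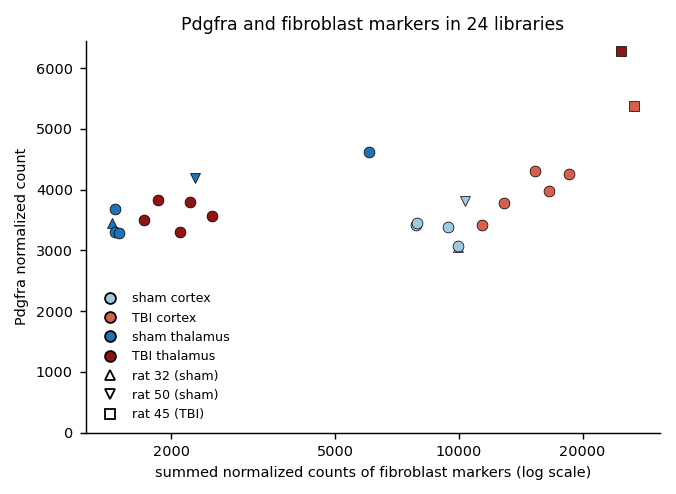
Pdgfra normalized count (vertical axis, from 0) against the summed normalized counts of 7 fibroblast markers (horizontal axis, log scale) in 24 libraries; colours give the group, the squares rat 45 and triangles rats 32 and 50. Both libraries of rat 45 combine the highest Pdgfra values of their region, 5373 and 6289, with the highest fibroblast sums, 26712 and 24831.

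Among the transcription factors, Sox10 differed most. Sox10, the SOX factor required for oligodendrocyte maturation, ranged from 760 to 1346 with a median of 1146 in sham cortex and from 1296 to 1821 with a median of 1527 in TBI cortex. The lowest TBI library overlapped the sham range and the other 5 lay above it. The log2 fold change was 0.51 ± 0.11 (limma, adjusted p = 0.0041), and it stayed called in every alternative run. Schwann cells also express Sox10: of the 6 Schwann cell markers tested in cortex 0 were called by limma and 1 by edgeR, with 1 at an unadjusted p under 0.05, and their sums were 605 to 1186 in sham and 505 to 993 in TBI cortex.

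The basic helix-loop-helix factors that start the lineage were not called. Olig1 ranged from 1439 to 2965 with a median of 2093 in sham cortex and from 2250 to 2878 with a median of 2356 in TBI cortex. The TBI values lay inside the sham range, and the log2 fold change was 0.22 ± 0.13 (adjusted p = 0.21). Olig2 ranged from 632 to 951 in sham cortex and from 690 to 925 in TBI cortex, with medians of 683 and 793. Its log2 fold change was 0.14 ± 0.10, with a 95% interval from -0.07 to 0.35. The other Olig2 locus, listed in the same span, gave 0.01 ± 0.11.

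Nkx2-2, a homeodomain factor that promotes the step from precursor to oligodendrocyte, ranged from 59.2 to 117 with a median of 85.7 in sham cortex and from 99.0 to 132 with a median of 113 in TBI cortex. Only 2 TBI libraries lay above every sham library, and the log2 fold change of 0.39 ± 0.15 missed the threshold (adjusted p = 0.053). With TMM or upper quartile scaling it was called, which brought the count to 5 of 10. Sox6, a SOX factor that holds precursors immature and is also made by cortical interneurons, ranged from 863 to 1116 in sham and from 968 to 1172 in TBI cortex. Its log2 fold change was 0.07 ± 0.07, with an interval from -0.08 to 0.22. Of 3 interneuron markers tested 0 were higher and 1 was lower, and the sum of all 4 was 6887 to 8149 in sham and 5512 to 6627 in TBI cortex. Pvalb had the highest mean of the 4 over the 24 libraries, at 4176 normalized counts, so it weighs most in the sum. Lhx6, the interneuron homeobox gene, gave -0.04 ± 0.06.

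Of the genes of the committed and newly formed stages, 1 was called in cortex. Gpr17, a receptor gene switched on for a short time as precursors commit, ranged from 2133 to 2509 with a median of 2446 in sham cortex and from 2557 to 3189 with a median of 2864 in TBI cortex. Every TBI library lay above every sham library, which held for 7.02% of all loci tested and for 1 of the 10 members. The log2 fold change was 0.26 ± 0.06 (limma, adjusted p = 0.0055). The span of the locus also holds Lims2, at a mean of 231 normalized counts over 24 libraries, and Myo7b, at 9.80.

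Enpp6, a phosphodiesterase gene that marks newly forming oligodendrocytes, had the widest relative spread of the 10 genes in sham cortex, from 195 to 502 with a median of 307. In TBI cortex it ranged from 347 to 588 with a median of 385, and 2 of 6 libraries lay above every sham library. The log2 fold change was 0.48 ± 0.19, as large as that of Sox10 within its error, but was not called (adjusted p = 0.077). Bcas1, a gene of early and myelinating oligodendrocytes, ranged from 7765 to 10903 in sham and from 7412 to 10814 in TBI cortex. The groups overlapped almost fully, and the log2 fold change was 0.04 ± 0.10, with an interval from -0.17 to 0.25.

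The 4 called genes stayed called with any 1 cortex library left out, and the count moved most without sham rat 32. The library of that rat had the highest Olig1, Olig2, Sox10, Gpr17, Bcas1, Enpp6 and Nkx2-2 of the sham cortex. Without it 8 of the 10 genes were called higher, adding Olig1 (adjusted p = 0.042), Olig2 (0.045), Enpp6 (0.015) and Nkx2-2 (0.018). The library with the lowest Cspg4, Olig1, Sox10, Enpp6 and Nkx2-2 was sham rat 50, and without both of these rats 6 genes were called, an alternative chosen after seeing the values. Without the cortex libraries of rats 45, 26 and 34, which leaves 9 libraries, Sox10 and Gpr17 alone were called.

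**Figure D3:**
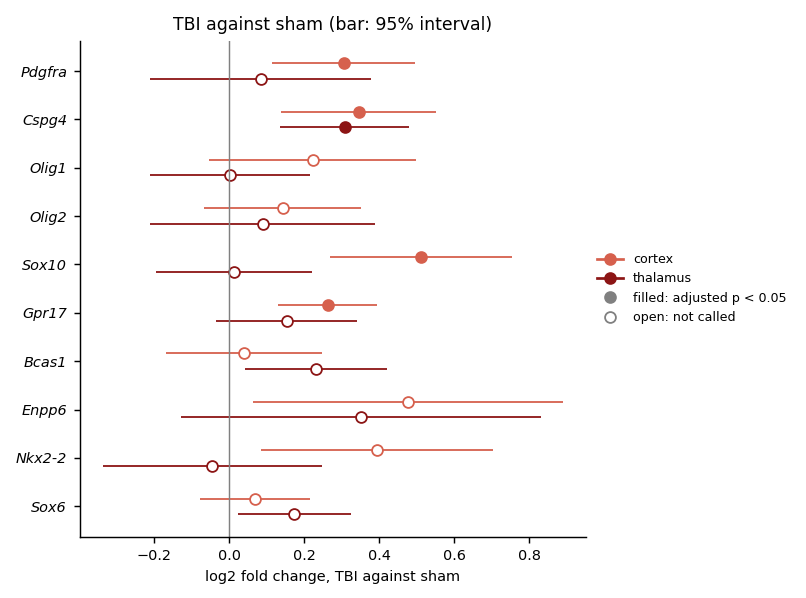
Log2 fold change of each gene, TBI against sham, in cortex and thalamus (horizontal axis) with its 95% interval as a bar; filled points were called at an adjusted p under 0.05. Cspg4 is the gene called in both regions, with estimates of 0.34 and 0.31.

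In the thalamus 1 of the 10 genes was called. Cspg4 was 1.24-fold higher in TBI rats, and 0 of 10 were lower, where 14.5% of the 15564 loci tested were called higher and 20.9% lower. At an unadjusted p under 0.05 there were 3, Cspg4, Bcas1 and Sox6, all higher, and edgeR called 1. The adjusted shares above are a lower bound for all loci at that unadjusted threshold, so the 3 are not read as an excess. No member had every TBI library above every sham library, which held for 7.46% of all loci. The median log2 fold change of the 10 genes was 0.12 against -0.02 over all loci. Of all calls in thalamus 59.0% were lower in TBI with the deposited scaling and 48.0% with upper quartile scaling, under which Bcas1 and Sox6 were called as well.

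Cspg4 ranged from 1336 to 1693 with a median of 1473 in sham thalamus and from 1676 to 2217 with a median of 1732 in TBI thalamus. The lowest TBI library lay inside the sham range and the other 5 above it. On the log2 scale TBI libraries were 0.31 ± 0.08 higher (limma, adjusted p = 0.0082), and the call held in each of the alternatives. Of the 6 pericyte and smooth muscle markers 5 were higher in TBI thalamus by limma and 3 were called by edgeR, with sums of 11498 to 15087 in sham and 14968 to 18587 in TBI, and Pdgfrb rose by 0.37 ± 0.11. The part of pericytes in the Cspg4 value was not tested.

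Pdgfra was not called in thalamus, and its difference from Cspg4 was not tested. Pdgfra ranged from 3280 to 4612 with a median of 3566 in sham and from 3309 to 6289 with a median of 3676 in TBI thalamus. The top value was again rat 45, at 6289, while the other 5 TBI libraries lay between 3309 and 3836, inside the sham range. The log2 fold change was 0.08 ± 0.14 with that library and -0.05 without it. The fibroblast marker sum in that library was 24831 against 1717 to 2514 in the other TBI thalamus libraries and 1432 to 6053 in sham. Of the 7 fibroblast markers limma called 0 in thalamus, edgeR 0, and 1 had an unadjusted p under 0.05.

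The genes of the committed and newly formed stages had estimates above 0 in thalamus but missed the threshold. Bcas1 ranged from 22137 to 28236 with a median of 23946 in sham and from 23644 to 33070 with a median of 29975 in TBI thalamus. Of the 6 TBI libraries 3 lay above every sham library, and the log2 fold change was 0.23 ± 0.09 (adjusted p = 0.054). Enpp6 ranged from 756 to 1758 in sham and from 802 to 2163 in TBI thalamus, with medians of 1116 and 1596. Rat 45 had the lowest TBI value, 802, and the log2 fold change was 0.35 ± 0.22, with an interval from -0.13 to 0.83. Gpr17 ranged from 3573 to 4599 in sham and from 3930 to 5372 in TBI thalamus, at a log2 fold change of 0.15 ± 0.09.

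The transcription factors other than Sox6 were close to their sham level in thalamus. Sox10 ranged from 2790 to 3899 with a median of 3061 in sham and from 2822 to 3847 with a median of 3066 in TBI thalamus, so the ranges nearly coincided. Its log2 fold change was 0.01 ± 0.10, with an interval from -0.20 to 0.22. Olig1, Olig2 and Nkx2-2 gave 0.00 ± 0.10, 0.09 ± 0.14 and -0.04 ± 0.14, and the other Olig2 locus 0.01 ± 0.10. Rats 52 and 63 had the highest TBI values of Olig1, Olig2, Sox10 and Nkx2-2.

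Sox6 ranged from 834 to 1041 in sham and from 921 to 1207 in TBI thalamus, with 4 of 6 TBI libraries above every sham library. Its log2 fold change was 0.17 ± 0.07 (adjusted p = 0.070). The interneuron markers, 4 in number, had 0 higher and 1 lower, and 2 of their estimates were above 0, with Lhx6 at 0.07 ± 0.41. Their sums were 5269 to 7719 in sham and 1465 to 3691 in TBI thalamus. These sums weigh the genes unequally: over the 24 libraries Pvalb averaged 4176 normalized counts, Sst 1326, Lhx6 267 and Nkx2-1 11.1. So a lower sum does not stand for a fall of all 4 markers. Schwann cell markers had 3 of 6 higher and 0 lower (edgeR called 2), with sums of 1141 to 1479 in sham and 1354 to 1807 in TBI thalamus.

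Leaving out 1 thalamus library at a time gave between 1 and 3 called genes. Cspg4 and Bcas1 were called without sham rat 32 and without TBI rat 22, Cspg4, Bcas1 and Sox6 without sham rat 26, Cspg4 and Sox6 without TBI rat 56, and Cspg4, Bcas1 and Enpp6 without TBI rat 45. Without rats 45, 50 and 34, the thalamus libraries richest in choroid plexus RNA, Cspg4 and Bcas1 were called.

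An interaction term fitted to the 24 libraries asked whether injury acted differently on a gene in thalamus and in cortex. None of the 10 genes was called, with 2 at an unadjusted p under 0.05 and 0 by edgeR, where 2.72% of 15678 loci had a higher effect in thalamus and 4.54% a lower one. The share of all loci at that unadjusted threshold is not given here, so the 2 are not read as an excess. Sox10 came closest: its effect was 0.50 ± 0.16 smaller in thalamus on the log2 scale, a signed difference of -0.50 (limma, adjusted p = 0.057; with the rat as a replicate block 0.084). It was called when any 1 of sham cortex rat 32, TBI cortex rat 63, sham thalamus rat 32, TBI thalamus rat 52 or TBI thalamus rat 63 was left out, with adjusted p between 0.029 and 0.047. Nkx2-2 differed by -0.44 ± 0.20 (adjusted p = 0.20) and Pdgfra by -0.22 ± 0.18 (adjusted p = 0.49). So Sox10, Gpr17 and Pdgfra, called in cortex alone, are not shown to respond differently in thalamus.

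Most of the genes differed between regions. In sham rats 8 of the 10 genes were higher in thalamus than in cortex and 0 were lower, against 33.9% and 28.3% of 15582 loci. In TBI rats the count was again 8 higher and 0 lower, against 31.0% and 26.5% of 15737 loci. The 8 were Cspg4, Olig1, Olig2, Sox10, Gpr17, Bcas1, Enpp6 and Nkx2-2 in both. The medians over the 10 genes were 1.16 in sham and 0.96 in TBI rats on the log2 scale, against 0.03 over all loci in each.

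Enpp6 had the widest regional difference. Its sham libraries ranged from 195 to 502 in cortex and from 756 to 1758 in thalamus, a difference of 1.92 ± 0.21 on the log2 scale or 3.79-fold, and its TBI difference was 1.80 ± 0.21 (limma, adjusted p = 9.1e-07 and 3.8e-06). Bcas1 was 1.42 ± 0.08 higher in thalamus of sham rats and 1.62 ± 0.10 in TBI rats. Gpr17 was 0.80 ± 0.07 and 0.69 ± 0.08 higher. None of these 3 genes had a thalamus value under any cortex value of the same treatment.

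The transcription factors of the lineage followed the same order. Sox10 was 1.56 ± 0.12 higher in sham thalamus and 1.06 ± 0.10 in TBI thalamus, Nkx2-2 1.36 ± 0.15 and 0.92 ± 0.13, Olig1 1.27 ± 0.13 and 1.05 ± 0.10, and Olig2 1.05 ± 0.11 and 1.00 ± 0.13. The other Olig2 locus gave 1.12 ± 0.09 and 1.12 ± 0.11. In each rat the thalamus library was above the cortex library for all of these genes, with differences within a rat of 1.05 to 1.95 for Sox10 in sham rats and 0.63 to 1.57 in TBI rats. Thus the order of Sox10 levels was sham cortex, TBI cortex and then the thalamus groups, whose ranges overlapped.

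The precursor surface markers and Sox6 had the smallest regional differences of the 10. Cspg4 was 0.42 ± 0.08 higher in sham thalamus and 0.39 ± 0.09 in TBI thalamus, and 4 of 6 TBI thalamus libraries lay above every TBI cortex library. Pdgfra was 0.15 ± 0.08 higher in sham thalamus (adjusted p = 0.13) and -0.07 ± 0.14 in TBI rats (adjusted p = 0.70). With the rat as a replicate block, Pdgfra was called in sham rats (adjusted p = 0.039), which made 9 of 10, and it was higher in thalamus in 5 of 6 sham rats and in 2 of 6 TBI rats. Sham thalamus of rats 34 and 50, with 4612 and 4194, held the highest Pdgfra of their group together with the highest choroid plexus sums. Without sham rats 26, 34 and 50 the Pdgfra difference was 0.08 with an adjusted p of 0.40, while the same 8 genes stayed called. Sox6 differed by -0.10 ± 0.07 in sham and 0.01 ± 0.07 in TBI rats, with intervals from -0.24 to 0.05 and from -0.15 to 0.17.

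**Figure D4:**
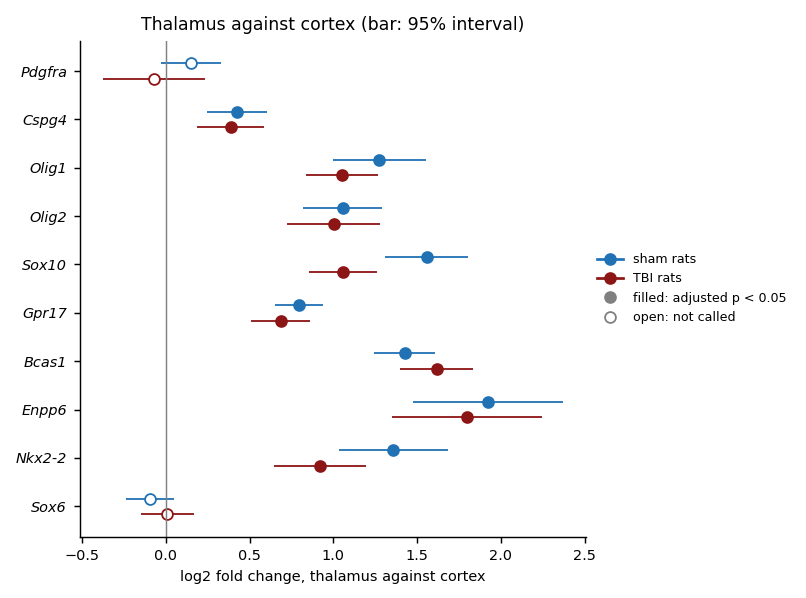
Log2 fold change of each gene, thalamus against cortex, in sham and in TBI rats (horizontal axis) with its 95% interval as a bar; filled points were called at an adjusted p under 0.05. Enpp6 lies farthest to the right, at 1.92 and 1.80, and Pdgfra and Sox6 lie at 0 within their intervals.

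To set the stage genes against a factor held through the lineage, each library's value was divided by its Olig2 value, which removes the scaling between libraries. Whether cells outside the lineage carried part of the Olig2 RNA was not tested. Values are not divided by gene length, so a ratio is compared between groups and its level says nothing about the relative amount of the genes. In sham cortex the Pdgfra to Olig2 ratio was 4.67 in geometric mean, from 3.21 to 6.02, and in TBI cortex 5.23, from 4.21 to 7.11. In sham thalamus the ratio was 2.50, from 1.90 to 3.13, and in TBI thalamus 2.49, from 1.74 to 4.29. The log2 difference of TBI from sham was 0.16 in cortex (exact two-sided permutation test, p = 0.39, adjusted over 6 ratios 0.58) and -0.01 in thalamus (p = 0.98). So the cortical Pdgfra to Olig2 ratio was not shown to change, although Pdgfra itself was called.

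The ratio of Gpr17 to Olig2 was 3.29 in sham and 3.58 in TBI cortex, a log2 difference of 0.12 (exact permutation test, p = 0.33, adjusted 0.58), and 2.75 and 2.88 in thalamus, a difference of 0.06 (p = 0.63, adjusted 0.75). The ratio of Enpp6 to Olig2 was 0.43 in sham and 0.54 in TBI cortex, a log2 difference of 0.33 (exact permutation test, p = 0.12, adjusted 0.58), and 0.78 and 0.94 in thalamus, a difference of 0.26 (p = 0.33, adjusted 0.58). The TBI and sham ranges overlapped for all 6 ratios. With Sox10 as the denominator the cortical differences were -0.21 for Pdgfra, -0.25 for Gpr17 and -0.03 for Enpp6, which turns their direction, and none was called with either denominator.

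**Figure D5:**
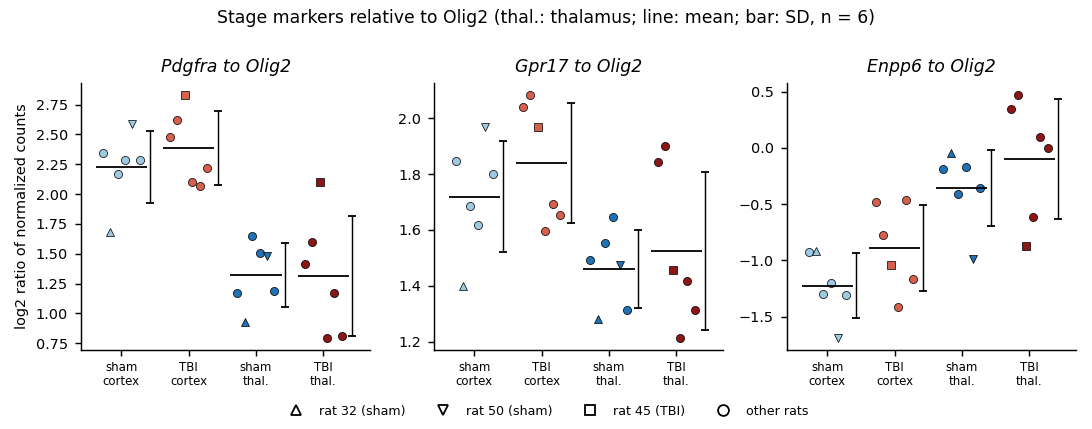
Log2 ratio of Pdgfra, Gpr17 and Enpp6 to Olig2 (vertical axes, log2 scale, not from 0) in the 24 libraries, 6 per group, with the mean as a line and the SD as a bar; triangles and squares mark sham rats 32 and 50 and TBI rat 45. TBI and sham points overlap in every panel, and the mean Pdgfra ratio is lower in thalamus than in cortex whereas the mean Enpp6 ratio is higher there. The ranges of the regions overlap for Pdgfra in TBI rats and for Enpp6 in both treatments, and no test between regions was run.

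The counts of the related gene lists stand beside the shares over all loci, 14.3% higher and 14.9% lower in TBI cortex and 14.5% higher and 20.9% lower in TBI thalamus. For thalamus against cortex the shares were 33.9% higher and 28.3% lower in sham rats, and 31.0% and 26.5% in TBI rats. Of 11 other precursor genes found, 2 were higher and 1 lower in TBI cortex, near those shares, and 0 were higher and 3 lower in TBI thalamus (edgeR called 3 and 2), with median log2 fold changes of 0.08 and -0.01. C1ql1, a secreted complement-like protein gene of precursors, rose by 0.76 ± 0.19 in cortex. Sox5, the partner of Sox6 in holding precursors immature, fell by 0.21 in cortex and by 0.49 in thalamus, and it is also a neuronal gene. In thalamus the locus of the proteoglycan gene Cspg5 fell by 0.20 and the channel subunit gene Cacng4 by 0.15. The Cspg5 locus joins that gene with Smarcc1, and the Sox5 locus joins Sox5 with an Ensembl gene without a symbol. The values of these joined loci cannot be assigned to a single gene. Between regions 6 of the 11 were higher and 3 lower in sham thalamus, and 5 higher and 4 lower in TBI thalamus.

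Of 10 differentiation regulators found, 4 were higher and 0 lower in TBI cortex, and 1 was higher and 2 lower in TBI thalamus (edgeR called 3 and 1), with medians of 0.21 and 0.05. In cortex these included Nkx6-2, a homeodomain factor of oligodendrocytes, at 0.62 ± 0.22, the chromatin remodeller gene Chd7 at 0.53 ± 0.08, and Tcf7l2 at 0.46 ± 0.10. In thalamus Id2, an inhibitor of helix-loop-helix factors, rose by 0.35 ± 0.12. There Lingo1, a brake on differentiation that neurons also make, fell by 0.50, and Tcf7l2, also a factor of thalamic neurons, fell by 0.23. In sham thalamus 6 were higher than in cortex and 3 lower.

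Genes of the newly formed oligodendrocyte had 4 of 8 tested higher in TBI cortex and 4 of 9 in TBI thalamus (edgeR called 4 and 2), with 0 lower in either and medians of 0.21 and 0.19. Bmp4, a growth factor gene of the committed stage, rose by 0.45 ± 0.11 and 0.29 ± 0.10, and Itpr2, a calcium release channel gene, by 0.21 ± 0.06 and 0.27 ± 0.08. Cnksr3, a scaffold protein gene, rose by 0.35 ± 0.08 in cortex, and the Myc family gene Mycl rose by 0.42 ± 0.09 in thalamus. In sham thalamus 5 were higher and 3 lower than in cortex.

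Of 13 mature myelin genes found, 4 were higher in TBI cortex and 2 in TBI thalamus, the latter near the share of all loci, with 0 lower and medians of 0.13 and 0.10. Cldn11, the myelin tight junction gene, rose by 0.40 ± 0.11, the adhesion gene Mag by 0.34 ± 0.10 and the enzyme gene Aspa by 0.34 ± 0.10 in cortex. Aspa and the membrane protein gene Opalin rose by 0.40 ± 0.07 and 0.40 ± 0.11 in thalamus. All 13 were higher in thalamus than in cortex in both sham and TBI rats, with a median of 1.55 in sham rats.

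Ligands and receptors that act on precursors had 8 of 19 higher and 3 lower in TBI cortex, and 7 higher and 1 lower in TBI thalamus, with medians of 0.13 and 0.18. Pdgfa, the ligand of PDGFRA, was lower in both regions at the higher of its 2 loci. It fell by 0.31 ± 0.06 in cortex and by 0.53 ± 0.06 in thalamus. Cxcr4, a chemokine receptor gene that microglia also use, rose by 1.01 ± 0.16 and 0.57 ± 0.17, Notch1 by 0.52 ± 0.10 in cortex and the growth factor gene Igf1 by 0.41 ± 0.14 in thalamus. Nrg1, a neuronal ligand of ERBB receptors, fell by 0.40 in cortex. In sham thalamus 6 of the 19 were higher than in cortex, near the share of all loci, and 4 were lower.

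Cell division genes were at low levels. Of 11, 4 were higher and 1 lower in TBI cortex and limma called 0 in TBI thalamus, where edgeR called 0 and 1 had an unadjusted p under 0.05, with medians of 0.28 and 0.35. Top2a, a topoisomerase of dividing cells, averaged 29.4 in sham and 50.6 in TBI cortex, a log2 fold change of 0.79 ± 0.23, and Cdk1 rose by 0.77 ± 0.23 and the replication licensing gene Mcm2 by 0.56 ± 0.11. For Mki67, the common marker of cycling cells, the highest of 3 loci averaged 73.6 in sham and 96.5 in TBI cortex, at 0.39 ± 0.12. It gave 0.36 ± 0.17 in thalamus. These genes mark any dividing cell, microglia included, and which cells carry them was not measured. In sham thalamus 4 were higher than in cortex, near the share of all loci, and 1 was lower.

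Endothelial markers had 0 of 6 called in cortex by limma and by edgeR, with 1 at an unadjusted p under 0.05, and 3 higher in thalamus, where edgeR called 2. Choroid plexus markers had 0 of 7 called by limma and by edgeR in each region, with 1 at an unadjusted p under 0.05 in cortex and 0 in thalamus; Ttr, its transport protein gene, gave -1.45 ± 1.19 and -0.65 ± 1.91.

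The loci of the members span, in the deposited coordinates, which the submitters' notes place on Rnor_5.0, chr14:35356434-35409311 for Pdgfra, chr8:60101159-60136341 for Cspg4, chr11:35037422-35039563 for Olig1, chr11:34944441-35001919 for Olig2, chr7:120387070-120397340 for Sox10, chr18:24422407-24538352 for Gpr17, chr3:174054252-174136769 for Bcas1, chr16:48024612-48150832 for Enpp6, chr3:147826314-147829527 for Nkx2-2 and chr1:192598052-193155893 for Sox6. These are spans of Cufflinks bundles rather than of single transcripts, and the file gives neither strand nor exons. The Olig2 span holds both loci of that name and 6 loci without a name.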

How the data were processed

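Polyadenylated RNA of 24 libraries (TruSeq Stranded mRNA, NextSeq 500) was aligned by the authors with TopHat2 2.0.11 and Bowtie2 2.2.2, assembled with Cufflinks 2.2.1 and compared with Cuffdiff; the submitters' processing notes name Rnor_5.0, the study's methods also an older genome release. The deposited signal, 1 value per locus and library, is a fragment count scaled by the authors with 1 size factor per library. In 23 libraries the low values, to which the step was fitted, were whole multiples of 1 step (100% within 0.01). Higher values were not checked in this way. Fragments were recovered in these libraries by dividing each value by the step and rounding. The step of sham thalamus rat 55, 0.989, also fitted (100%) but lies close to 1, and that library was left out of the count test. Loci without a name held 1.90% to 2.23% of the normalized counts and were left out.

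Groups came from the labels. limma 3.58.1 in R 4.3.3 (lmFit, eBayes with trend) was fitted to log2(normalized count + 1) of all named loci with a mean of at least 10 (Benjamini-Hochberg adjusted, threshold 0.05); a fold change on this scale understates the change of low genes, and ± after it is the SE. Ratios were tested by an exact permutation test (scipy 1.17.1). edgeR 4.0.16 on recovered fragments was an alternative, beside TMM and upper quartile scaling, voom, other filters, pseudocounts and thresholds, leave-one-out, a rat block and, for the ratios, another denominator; those without several libraries at once and with both Olig2 loci summed were chosen after seeing the data. The limma fit was run on simulated counts with known changes. The edgeR and voom fits, the rat block and the permutation test were not tested in this way.

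Cortex and thalamus of a number came from the same rat, so the numbers pair the libraries. After the group means were taken out, the cortex and thalamus libraries of a rat correlated at a median of 0.187 (0.0039 to 0.57), over 0.1 in 10 of 12 rats, against -0.033 for different rats. The region comparisons and the interaction were fitted without the block, as fixed. Genes outside the 10 were named by rule: per list the up to 3 largest changes among those called in a region, and Aif1, Gfap, Pdgfrb, Col1a1, Dcn, Lhx6, Ttr, Rbfox3, Mki67 and Top2a; some genes this rule named are not reported here. The members and lists were chosen with earlier results of these data known. The floor of 3 fragments covers counting error only, and intervals of fold changes cover the spread between rats.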

Additional observations from a re-analysis of the deposited data

Results flagged for a closer look

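In 56 groups of 6 libraries (the 10 genes, the other Olig2 locus and the 6 ratios), 2 held a library whose gap to its nearest neighbour took an unusually large share of the group's range; chance gives about 5% of groups. Pdgfra in TBI thalamus of rat 45 stood at 6289 normalized counts, with a gap of 0.823 of the range. Cspg4 in sham cortex of rat 50 stood at 851 normalized counts, with a gap of 0.801 of the range.

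Of the other named genes 3 had an injury effect that differed between regions by the interaction test of limma. The effect on Tcf7l2, also a factor of thalamic neurons, was lower in thalamus, at -0.69 (adjusted p = 0.0010), as was that on Cnksr3, at -0.46 (adjusted p = 0.026). The effect on Aif1 was higher in thalamus, at 0.46 (adjusted p = 0.018). None of the 10 members did so.

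Outside the named loci, a locus without a name in the span of Olig2 averaged 87.3 normalized counts over the 24 libraries, where 3 fragments are at most 3.76.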

How the results depend on the processing

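All members lay above the count floor in every library. The counts of 8 members between regions held under every scaling, filter, threshold and left-out library, and the replicate block gave 9 in sham rats (adding Pdgfra), 8 in TBI rats and 0 for the interaction, and changed no other call of a member. In cortex the count of 4 became 2 at a threshold of 0.01 and 2 without rats 45, 26 and 34, and ran from 4 to 8 with 1 library left out. In thalamus the count of 1 became 3 with upper quartile scaling, 2 with a mean of at least 50 and 2 without rats 45, 50 and 34, and ran from 1 to 3 with 1 library left out. For the interaction the leave-one-out count ran from 0 to 1. The cause of these moves was not tested, and the fits with libraries left out also rest on smaller samples.

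No ratio to Olig2 was called under any alternative. With Sox10 as the denominator the difference turned for Pdgfra (-0.21 in cortex and 0.071 in thalamus), Gpr17 in cortex (-0.25) and Enpp6 in cortex (-0.034), and with both Olig2 loci summed for Pdgfra in thalamus (0.021). With 1 library left out the ratio of Pdgfra in thalamus ran from -0.16 to 0.098 and that of Gpr17 in thalamus from -0.012 to 0.13.

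Among 1270 member fold changes under alternatives, 1209 kept direction and side of the threshold, 5 lost a call, 27 gained one and 29 changed sign, none of them a called value. Leave-one-out ranges that cross 0 were, for TBI against sham, -0.010 to 0.11 for Bcas1 in cortex, and in thalamus -0.051 to 0.15 for Pdgfra, -0.062 to 0.039 for Olig1, -0.00049 to 0.18 for Olig2, -0.039 to 0.071 for Sox10 and -0.11 to 0.028 for Nkx2-2. For thalamus against cortex in TBI rats they were -0.21 to 0.0037 for Pdgfra and -0.028 to 0.050 for Sox6, which TMM scaling put at -0.012. For the interaction they were -0.094 to 0.037 for Cspg4, -0.14 to 0.034 for Olig2 and -0.27 to 0.054 for Enpp6 (0.010 without both libraries of rat 45). Of 1598 fold changes of other named genes, 108 lost a call and 10 gained one. With 1 library left out a call was lost for Cdk1, Igf1, Itpr2, Mki67, Nkx6-2 and Rbfox3 in cortex, for Bmp4, Cacng4, Id2, Igf1 and Tcf7l2 in thalamus, and for Cnksr3 in the interaction. In thalamus Col1a1 ran from -0.21 to 0.83, Lhx6 from -0.15 to 0.42 (-0.26 with edgeR) and Ttr from -2.13 to 0.45 (0.28 with edgeR).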

Other observations

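The span of Olig2 holds 6 loci without a gene name, whose strand the files do not give. Their summed level ran from 78.3 to 118 normalized counts in sham cortex, from 86.9 to 126 in TBI cortex, from 130 to 217 in sham thalamus and from 189 to 266 in TBI thalamus. The TBI and sham ranges of a region overlapped, and each thalamus library was above every cortex library. No test was run on them.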
